A study of Mus musculus with 6 samples.

Results

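The AP-1 and EGR immediate early factors are a group of 10 genes, 4 of the FOS family (Fos, Fosb, Fosl1 and Fosl2), 3 of the JUN family (Jun, Junb and Jund) and 3 of the EGR family (Egr1, Egr2 and Egr3). They were chosen by name as a family of transcription factors, with earlier results of these data known. Each of the 10 was found among the 19938 genes measured, and each was represented by 1 probe set. Total RNA of mouse precursor B cells was hybridised to Affymetrix arrays, which report 1 log2 signal per probe set. The cells of both groups had been transformed with BCR-ABL1, a constitutively active tyrosine kinase that drives Philadelphia chromosome-positive leukaemia, and carried the mixed strain background C57Bl/6-SV129j. They differed in genotype: 3 arrays were of Dusp6 WT cells and 3 of Dusp6 KO cells, which lack Dusp6, a phosphatase that inactivates ERK. The labels do not give the ages of the mice, how BCR-ABL1 was introduced, which part of Dusp6 was deleted, or whether replicate arrays stand for different mice or cultures. The spread behind the p-values may therefore be technical.

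FOS and JUN proteins are basic leucine zipper factors that pair to form AP-1. JUN proteins can pair with each other, whereas FOS proteins need a JUN partner to bind DNA. EGR proteins bind a GC-rich element through zinc fingers. Many of these genes are induced within minutes of a growth factor or antigen receptor signal, without new protein synthesis, when ERK phosphorylates ELK1 at promoters that also hold serum response factor. Their transcripts are short-lived, and in B cells EGR factors are known as targets of antigen receptor signalling. BCR-ABL1 is known to activate RAS and ERK, and the comparison bears on how transcripts of ERK-responsive factors differ in transformed cells without this ERK phosphatase.

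The control regions of these genes are shown because immediate early genes are known to receive their signals there. RefSeq promoter windows on GRCm38.p6 were held for 7 of the 10 members (Fos, Fosb, Fosl2, Jun, Junb, Jund and Egr2), with 5 annotated starts for Egr2, several of them overlapping. The 250 bases before each annotated start were searched on both strands for the motifs below. Stretches of members that were called lower in the comparison below (Fosb and Jund) and of members that were not (Egr2, Fos and Junb) are given 5′ to 3′ on the gene's strand, with matches in capitals. The Fosb and Egr2 stretches are short because other transcripts of these genes start further upstream.
Fosb, chr7:19310084-19310113, minus strand, bases −68 to −39: gttgcgggTGACGcaagcGCGGGGGCGggt
Egr2, chr10:67537791-67537820, plus strand, bases −78 to −49: ctcagtCCATATATGGgcagcgaCGTCAcg
Fos, chr12:85473740-85473889, plus strand, bases −150 to −1: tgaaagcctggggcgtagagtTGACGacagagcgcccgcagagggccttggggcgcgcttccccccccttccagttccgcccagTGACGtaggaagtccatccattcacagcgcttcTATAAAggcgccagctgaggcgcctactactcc
Junb, chr8:84978749-84978898, minus strand, bases −150 to −1: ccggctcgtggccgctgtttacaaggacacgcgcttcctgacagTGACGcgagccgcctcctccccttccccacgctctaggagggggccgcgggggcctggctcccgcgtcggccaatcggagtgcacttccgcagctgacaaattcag
Jund, chr8:70697589-70697738, plus strand, bases −150 to −1: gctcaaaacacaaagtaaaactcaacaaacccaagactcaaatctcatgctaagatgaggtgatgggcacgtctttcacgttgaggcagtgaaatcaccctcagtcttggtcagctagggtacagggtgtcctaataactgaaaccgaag

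The most frequent match was the core of the cAMP response element, TGACG, which CREB and related factors bind. This short core was not among the planned motifs, which held the full element. The core was present in 4 of the 7 members (Fos, Fosb, Junb and Egr2) and in 17.8% of 32851 windows of all genes. A member was counted if any of its windows held a match, whereas the shares over all genes are of single windows. The GC content of the members' windows ran from 47.6% (Jund) to 71.2% (1 start of Egr2). The median over all windows was 52.4%, and only Jund lay below it. The full element TGACGTCA, which contains that core, was in 0 of the 7 and in 1.55% of all windows. The AP-1 element TGANTCA was also in 0 of the 7, against 6.75% of all windows. The EGR element GCGNGGGCG was found before the starts of Fosb and Fosl2 and in 4.70% of all windows. A CArG box, the site of serum response factor, was found for Egr2 alone, at 4 of its 5 starts, and in 1.47% of all windows. Some of those Egr2 windows overlap and hold the same site, so the starts do not count separate boxes. The ETS element CCGGAA was likewise found for Egr2 alone (12.03% of all windows), and the TATA box TATAAA for Fos alone (12.4% of all windows). The windows of Jun and Jund held none of the 7 motifs. A match is a description of the letters, and elements further from the start were not searched. Whether the cells use these annotated starts was not tested.

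**Figure D1:**
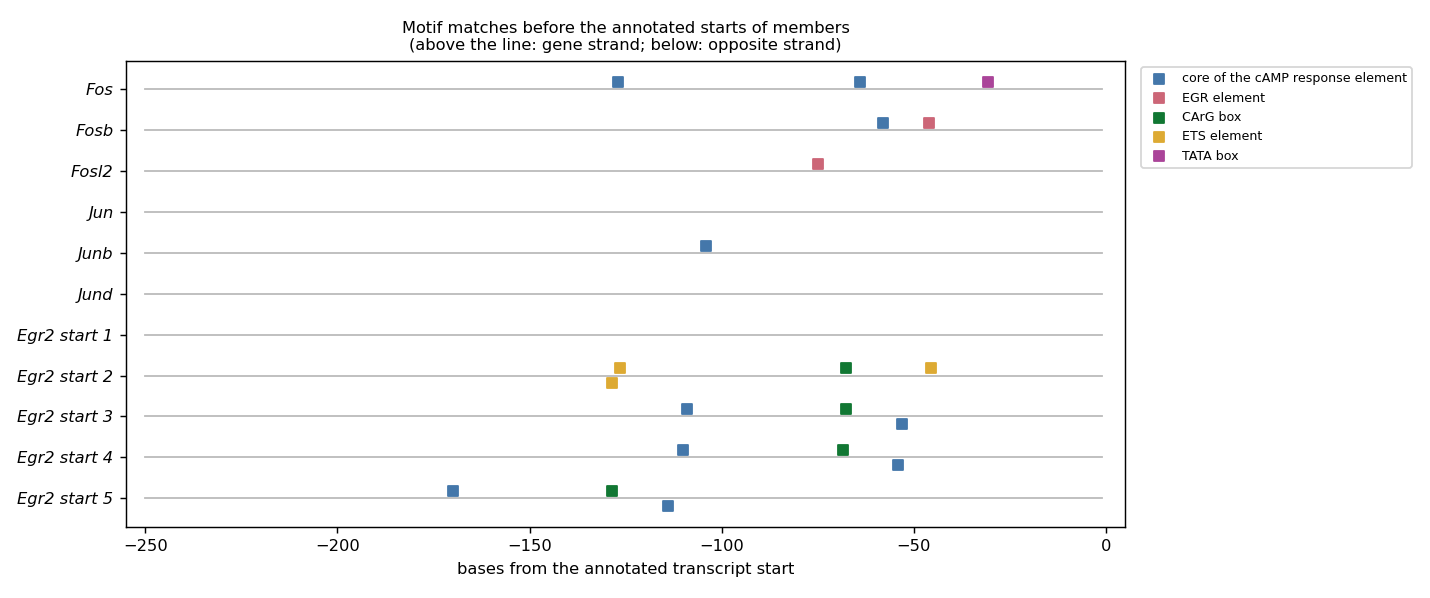
Matches to 5 of the 7 motifs along the 250 bases before the annotated starts of 7 members; the x axis is distance from the start in bases, squares above a line are on the gene's strand and those below it on the opposite strand. Fos, Fosb, Junb and Egr2 hold the core of the cAMP response element, Egr2 the CArG box, and Jun and Jund hold no match.

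Dusp6 was lower in every KO array. The log2 signal of Dusp6 was 12.36, 12.46 and 12.49 in the WT arrays and 9.04, 9.06 and 9.15 in the KO arrays, although it is not known here whether its probes lie in the deleted part. Correlations across genes were 0.9985 to 0.9989 within a genotype and 0.9907 to 0.9917 between the genotypes. Of the B lineage genes, Igll1, which encodes a surrogate light chain, had a mean log2 signal of 14.52 in WT and 14.50 in KO, and Cd79a, Cd79b, Ebf1 and Pax5 were each at 12.996 or more in both groups. The upper quartiles of the arrays, 10.45 to 10.49, are only a rough guide to these levels, since probe sets share no common scale. The summed linear signal of 13 B lineage markers was 138113 to 138608 in WT and 129061 to 131860 in KO arrays. Of the 13, 5 fell, among them Dntt by 1.42, Rag2 by 0.43 and the interleukin receptor gene Il7r by 0.31. The 2 that rose were Rag1 by 0.20 and Cd93 by 0.25. Of all genes 10.2% fell and 9.66% rose. Of 11 myeloid markers 2 rose, Fcgr3 by 1.72 and Lyz2 by 0.70, and the list's summed signal was 2217 to 2297 in WT and 3087 to 3371 in KO. The other 9 were not called, among them Mpo, Elane, Csf1r and Itgam, which are named here after their values were seen. Of 8 T and NK cell markers Klrd1 rose by 0.61, with sums of 1457 to 1523 in WT and 1565 to 1654 in KO. The 4 erythroid and megakaryocyte markers and the 7 stromal markers gave 0 calls by limma, and 0 of them had an unadjusted p under 0.05. The smallest p values of these lists were those of Itga2b and Gata1 (log2 differences −0.054 and 0.036) and of Col3a1 and Col1a1 (0.053 and 0.033). The summed signals of both lists overlapped between the genotypes, at 895 to 960 and 889 to 932 for the first list and 2357 to 2408 and 2367 to 2465 for the second. The part that shifts in marker genes play in the results below was not tested, and in bulk RNA fewer cells of a type and less RNA per cell cannot be told apart.

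Among the members, 3 of 10 fell in the KO cells, Egr1, Fosb and Jund, 1 from each family, and 0 rose. They fell by 1.24-fold to 1.42-fold, so the changes were small beside the 10.3-fold loss of Dusp6. Calls were made by limma at a Benjamini-Hochberg adjusted p under 0.05 over all genes. At that threshold 10.2% of all genes were called lower and 9.66% higher. At an unadjusted p under 0.05, 5 members were lower and 0 higher, beside 3114 lower and 2978 higher of the 19938 genes. The median log2 difference of the members, KO minus WT throughout, was −0.069, against 0.0018 over all genes. The 3 WT and 3 KO values did not overlap in 3 of the 10 members, which were the called ones, against 35.7% of all genes. No member had a signal below the lower quartile of any array (7.12 to 7.16), but signals were not tested against background. Col1a1, the highest of the 7 stromal markers, had means of 9.35 in WT and 9.38 in KO. Those lay above both group means of Fos, Fosb, Fosl1, Fosl2, Egr2 and Egr3, and above the KO mean of Egr1 (9.30).

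**Figure D2:**
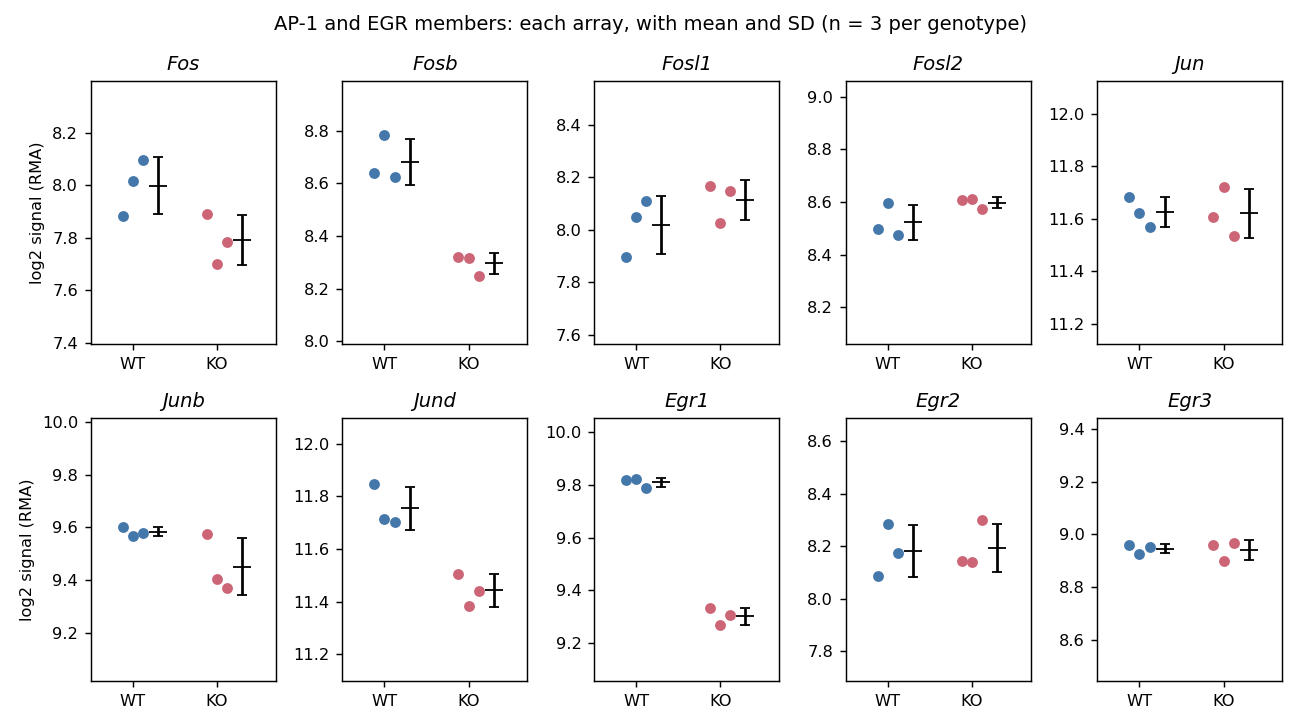
Log2 signal (y axis, RMA; every panel spans 1 log2 unit) of the 10 members in each of the 3 WT (blue) and 3 KO (red) arrays, with the group mean and SD in black. Egr1, Fosb and Jund show separated groups, while the arrays of the other 7 overlap.

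Egr1, a zinc finger activator that is one of the classical readouts of ERK activity, had the largest difference of the 10. Its log2 signal was 9.82, 9.82 and 9.79 in the WT arrays and 9.33, 9.27 and 9.30 in the KO arrays. Every KO array lay below every WT array, and the gap was many times the spread within a genotype (9.81 ± 0.019 in WT and 9.30 ± 0.032 in KO; SD, n = 3 each). The difference was −0.51 ± 0.041 (SE), or 1.42-fold lower, with a limma adjusted p of 2e-05. It kept its call in all 14 alternative settings, at −0.52 to −0.49 when 1 array was left out.

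The relatives of Egr1 were not called. Egr2, which acts with Egr3 in lymphocyte development and in restraining antigen responses, had log2 signals of 8.09, 8.29 and 8.17 in WT and 8.14, 8.14 and 8.30 in KO. The arrays of the genotypes were interleaved, and the difference of 0.012 had a 95% interval from −0.13 to 0.16. Egr3 read 8.96, 8.93 and 8.95 in WT and 8.96, 8.90 and 8.97 in KO. These values also overlapped, and the 95% interval of the Egr3 difference ran from −0.098 to 0.089. The Egr3 signal was not tested against background, and the spread behind that interval may be technical. Whether the members' differences differ from each other was not tested.

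In the FOS family, Fosb fell, a member whose transcript is also spliced to the truncated, stable form known as delta FosB. Its log2 signal was 8.64, 8.78 and 8.62 in WT and 8.32, 8.32 and 8.25 in KO. The groups did not overlap, and the lowest WT array stood 0.30 above the highest KO array. The difference was −0.39 ± 0.053 (SE), or 1.31-fold lower (limma adjusted p = 0.0007). The array gives 1 value for the gene and does not separate its splice forms. Each KO array read Fosb below that array's median (8.39 to 8.41), and the signal was not tested against background.

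Fos, the founding member of the family and a direct target of ELK1 and serum response factor, was lower on average but missed the threshold. It read 7.88, 8.02 and 8.10 in WT and 7.89, 7.70 and 7.78 in KO. WT replicate 1 and KO replicate 1 were nearly equal, so the groups overlapped at that point. The difference was −0.21 ± 0.067 (SE) with a limma adjusted p of 0.061, and its 95% interval ran from −0.36 to −0.055. Fos passed in 6 of the 13 alternative settings that tested it. Without WT replicate 1 the difference was −0.26 (adjusted p = 0.029), and without KO replicate 1 it was −0.26 (0.032). Over the 13 settings the adjusted p ranged from 0.028 to 0.19. Its signal lay below the median of each array, as did those of Fosl1 and Egr2, and was not tested against background.

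The FOS-related antigens had positive differences that did not pass. Fosl1, which encodes FRA1 and is known as a target of AP-1 itself, read 7.90, 8.05 and 8.11 in WT and 8.17, 8.03 and 8.15 in KO (difference 0.095, 95% interval −0.048 to 0.24, limma adjusted p = 0.37). Fosl2, which encodes FRA2, read 8.50, 8.60 and 8.47 in WT and 8.61, 8.61 and 8.57 in KO. In both genes the KO arrays overlapped the WT range. The difference of Fosl2 was 0.075, with an interval from −0.030 to 0.18 (adjusted p = 0.33).

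In the JUN family, Jund fell. JUND is known as the JUN protein least tied to acute stimulation, present in many resting cells and often a brake on growth. Its log2 signal was 11.85, 11.71 and 11.70 in WT and 11.51, 11.38 and 11.44 in KO. The groups did not overlap, and the difference was −0.31 ± 0.055 (SE), or 1.24-fold lower (limma adjusted p = 0.0031). When 1 array was left out it lay between −0.34 and −0.27, with its call kept.

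Jun, the strongest transactivator of the family, was not called. It read 11.68, 11.62 and 11.57 in WT and 11.61, 11.72 and 11.54 in KO. Both the highest and the lowest Jun signal were KO arrays, and the difference of −0.0043 had an interval from −0.13 to 0.12. Junb, which can oppose JUN and restrains myeloid proliferation in mice, read 9.60, 9.57 and 9.58 in WT and 9.57, 9.41 and 9.37 in KO. KO replicate 1 fell within the WT range and the other 2 KO arrays below it. The Junb difference was −0.13 (interval −0.26 to −0.0057, limma adjusted p = 0.15). Without KO replicate 1 it was −0.20 and passed (adjusted p = 0.017), and with Fos also passing the count of members that fell was 5 without that array.

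**Figure D3:**
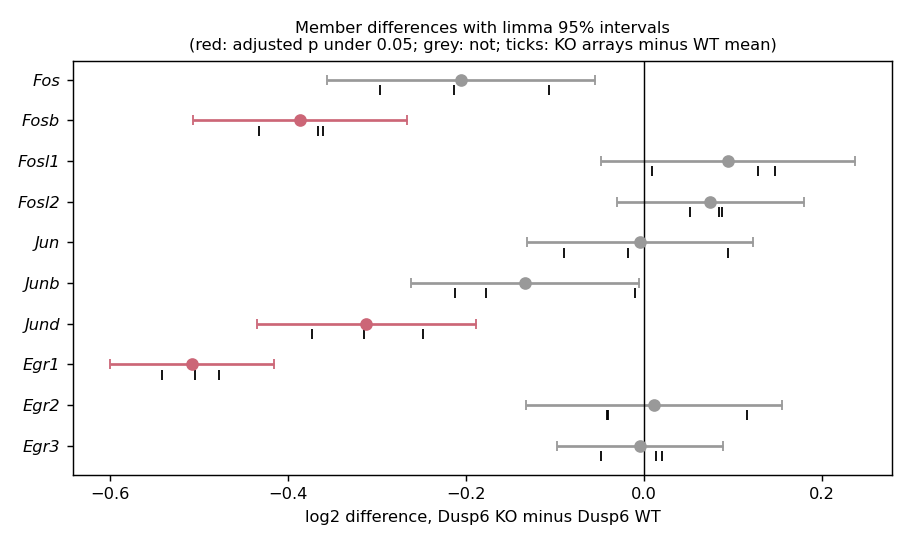
Log2 difference, KO minus WT (x axis), of each member with limma's 95% interval; red points passed an adjusted p under 0.05, grey points did not, and ticks give each KO array minus the WT mean. Egr1, Fosb and Jund lie at −0.51, −0.39 and −0.31, and the intervals of Fosl1, Fosl2, Jun, Egr2 and Egr3 span 0.

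The genes whose 6 array values, each taken relative to the gene's own WT mean, lay closest to those of Egr1 were Zfp704, Zhx3 and Zfp629. Their root mean square distances from Egr1 over the 6 arrays were 0.018, 0.028 and 0.030 on the log2 scale. Zfp704 read 10.499, 10.52 and 10.505 in WT and 10.02, 9.97 and 10.04 in KO. As for Egr1, the WT arrays lay within a narrow band and the KO arrays below it. The genes were chosen for closeness to Egr1 in these same values, so their likeness to it is not a separate result. Zhx3 fell by 0.54 and Zfp629 by 0.52.

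The wider pathway was described with 97 distinct genes of 8 further lists, of which 12 rose (12.4%) and 18 fell (18.6%), beside 9.66% and 10.2% of all genes. Their median log2 difference was −0.021. Some genes stand in more than 1 list, such as Nr4a1, Atf3, Zfp36 and Cd44.

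Among partner bZIP factors that can pair with JUN or compete with FOS, 2 of 11 measured rose and 0 fell by limma. Of all genes 9.66% rose and 10.2% fell. At an unadjusted p under 0.05, 0 of the 11 were lower, beside 3114 of the 19938 genes. Batf, which pairs with JUN proteins at sites shared with IRF factors in lymphocytes, read 8.44, 8.42 and 8.56 in WT and 9.04, 8.97 and 8.98 in KO. The groups were well separated, and the rise of 0.52 ± 0.049 (SE; adjusted p = 5.5e-05) was opposite in sign to the changes of Egr1, Fosb and Jund. The stress-induced repressor gene Atf3 rose by 0.19 (adjusted p = 0.015). Atf3 lost its call without WT replicate 1, WT replicate 3 or KO replicate 3 (adjusted p 0.057 to 0.061). Of Egr4 and Wt1, relatives of the EGR factors, and the EGR corepressors Nab1 and Nab2, 0 were called by limma, and 0 had an unadjusted p under 0.05. Nab1 differed by 0.038 and Egr4 by −0.045.

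Factors that act at immediate early promoters gave 3 decreases and 1 increase among 9 genes (median −0.071). Of all genes 10.2% were called lower and 9.66% higher. Elk1, which encodes an ERK substrate that binds promoters together with serum response factor, read 10.59, 10.51 and 10.44 in WT and 10.07, 9.78 and 10.002 in KO. Every KO array was below every WT array, and the difference was −0.57 ± 0.076 (SE; limma adjusted p = 0.00057). The actin-regulated coactivators of serum response factor moved in opposite directions, Mrtfb by −0.31 and Mrtfa by 0.29. Serum response factor itself, Srf, differed by −0.071 (adjusted p = 0.44). Creb1 fell by 0.15 (adjusted p = 0.042), a call that was lost on leaving out any 1 of the 6 arrays (adjusted p 0.0533 to 0.12).

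Of 19 MAP kinase and nuclear effector kinase genes 14 were measured, and 4 fell and 0 rose by limma. Of all genes 10.2% fell and 9.66% rose. At an unadjusted p under 0.05, 6 of the 14 were lower and 1 higher, beside 3114 and 2978 of the 19938 genes. Mapk8, which encodes the JUN kinase JNK1, fell by 0.53 (limma adjusted p = 5.7e-05), and its relative Mapk9 differed by −0.12 (0.11). The p38 kinase genes Mapk14 and Mapk11 fell by 0.24 and 0.25, and Mapk7, which encodes ERK5, fell by 0.22. Mapk11 lost its call without WT replicate 1, KO replicate 1 or KO replicate 2 (adjusted p 0.077 to 0.11). Mapk7 lost its call without WT replicate 1, WT replicate 2 or KO replicate 2 (0.058 to 0.078).

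Of 32 other immediate early genes 19 were not called, 6 rose and 7 fell, beside 9.66% and 10.2% of all genes. Their median difference was −0.019. The antiproliferative gene Btg2 read 10.46, 10.35 and 10.37 in WT and 11.41, 11.26 and 11.38 in KO. That rise of 0.96 was larger than the change of any member. The stress kinase gene Plk3 read 10.17, 10.10 and 10.09 in WT and 9.22, 9.29 and 9.24 in KO, a decrease of 0.87. Gadd45b, a stress gene, fell by 0.51 and Klf10, a zinc finger repressor, by 0.37 (limma adjusted p 0.00015 and 0.00063). Myc, another early gene, differed by −0.045 (adjusted p = 0.66).

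Of 15 genes known as AP-1 targets 11 were not called, 2 rose and 2 fell (median −0.0001), beside 9.66% and 10.2% of all genes. The ephrin receptor gene Epha2 read 11.89, 11.93 and 11.84 in WT and 10.73, 10.76 and 10.89 in KO, a decrease of 1.10. The heme oxygenase gene Hmox1 fell by 0.23, the cytokine gene Lif rose by 0.53 and the adhesion gene Cd44 rose by 0.21. Cd44 lost its call without WT replicate 2, KO replicate 2 or KO replicate 3 (limma adjusted p 0.061 to 0.065).

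Of 11 EGR target genes 6 were not called, 2 rose and 3 fell (median −0.070), beside 9.66% and 10.2% of all genes. Ndrg1 and Cblb, which are known from T cells as EGR2 and EGR3 targets that dampen antigen receptor signals, fell by 0.57 and 0.32 (limma adjusted p 7.9e-06 and 0.0011). The orphan nuclear receptor gene Nr4a1 fell by 0.30 (adjusted p = 0.015), a call lost without WT replicate 3 (0.0504). The cytokine gene Tnf rose by 0.48, and Cd44 is given above. Id3, a classical EGR1 target in lymphocytes, differed by −0.18 (adjusted p = 0.082).

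Of 10 genes for turnover of FOS and JUN products, 1 rose and 1 fell, beside 9.66% and 10.2% of all genes. Zfp36, whose product binds AU-rich elements and speeds the decay of early transcripts, fell by 0.27 (limma adjusted p = 0.0019). Its relative Zfp36l2 differed by −0.22 (adjusted p = 0.066). The gene of the ubiquitin ligase Itch, which acts on JUN proteins, rose by 0.15 (adjusted p = 0.027). Itch lost its call on leaving out any 1 array except KO replicate 1 (adjusted p 0.066 to 0.095). Cop1, a ubiquitin ligase of JUN, differed by −0.016.

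**Figure D4:**
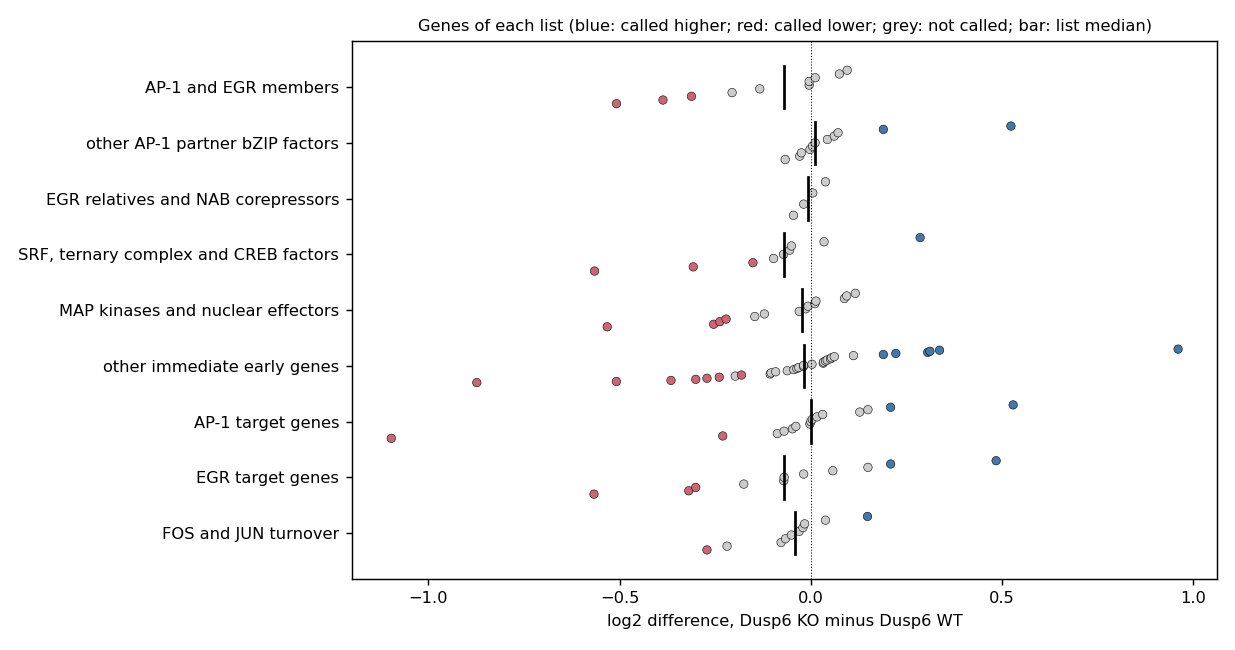
Log2 difference, KO minus WT (x axis), of every measured gene in the members' list and in 8 further lists; blue points were called higher, red points lower, grey points neither, and black bars are list medians. The members have 3 red and 0 blue points, the other immediate early genes 7 and 6, and Epha2 at −1.10 and Btg2 at 0.96 are the farthest points.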

How the data were processed

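The deposited values are log2 signals of single arrays, made with RMA and Partek 6.5 per the submitters' processing notes. Further settings are not given in the sources that were used here. Of 35556 probe sets, 21789 carried 1 gene symbol, 1621 several and 12146 were unnamed here. Each gene was represented by its single-symbol probe set with the highest mean over the 6 arrays (999 genes had more than 1). Genotypes came from the sample labels.

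In R 4.3.3, limma 3.58.1 fitted genotype alone to all 19938 genes (lmFit, then eBayes), with Benjamini-Hochberg adjustment over all genes. The procedure was tested on simulated data with independent noise for each gene and the spread of these arrays. Such data cannot show whether that spread is technical. For arrays the number of samples limits the precision, and over all genes log2 differences had a median standard error of 0.051. Levels of different probe sets have no common scale, and array quartiles were used only as a rough guide. Signals of the listed genes were not tested against background.

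The members and lists were chosen with earlier results of these data known. Of 172 list entries 159 were measured. The text names all members, Dusp6, up to 4 called genes of each list with the largest differences (the 2 with the smallest p where none was called), and the 3 genes most like Egr1. Genes named outside this rule (Nab2, Wt1, Srf, Mapk9, Myc, Id3, Zfp36l2, Cop1 and B cell and myeloid markers) were chosen after their values were seen. Alternatives were a repeated quantile normalization, median centring, filters on dim genes, other handling of probe sets, limma's trend and robust options, a replicate block and leaving out each array.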

Additional observations from a re-analysis of the deposited data

How the results depend on the processing

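Egr1 and Jund kept direction and call in all 14 alternative settings, and Fosb in each of the 13 that tested it; genes at or above the median signal left 5 members, without Fosb. Fos passed at −0.23 after a repeated quantile normalization (limma adjusted p = 0.028), at −0.22 after median centring (0.028), and at −0.21 among genes above the 25th percentile of signal (0.033) and with trend and robust options (0.040). With 1 array left out Fos lay between −0.26 and −0.16, Junb between −0.20 and −0.094, and 3 to 5 members fell. Differences near 0 changed sign: Jun was 0.001 and Egr2 −0.013 after quantile normalization, and Egr2 was −0.0062 after centring. Leaving out 1 array gave −0.054 to 0.038 for Jun, −0.041 to 0.063 for Egr2, −0.017 to 0.017 for Egr3, −0.094 to 0.022 for Egr4 and −0.0033 to 0.067 for Col1a1. The cause of these changes was not tested. Vpreb1, a named B lineage marker that fell by 0.27, lost its call without KO replicate 2 or 3 (adjusted p 0.055 to 0.061).

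The replicate numbers were shared by the genotypes, but arrays with the same number did not deviate together (correlations 0.0098, −0.12 and 0.053), and not every array correlated best with its own number. The replicate block gave 3 members lower and 0 higher, and 1681 genes higher and 1764 lower. It ended the calls of Creb1, Itch and Mapk11 (adjusted p = 0.0501 for Mapk11). Testing every probe set ended those of Creb1, Mapk11, Mapk7, Cd44, Nr4a1 and Vpreb1 (adjusted p 0.0541 to 0.10), and centring that of Itch (0.058).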
